A study of Mus musculus with 6 samples.

Results

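The glutathione, thioredoxin and antioxidant enzyme genes were followed in aortas of apoE-/- mice. Without apolipoprotein E these animals clear lipoproteins poorly, become hypercholesterolaemic and form arterial plaques. Members were all probe sets with a single platform gene symbol that began with Gst, Mgst, Gpx or Prdx and a class letter or number, with Txn or with Glrx. Sod1, Sod2, Sod3, Cat, Gclc, Gclm, Gsr, Gss, Nqo1, Srxn1, Nfe2l2 and Keap1 were added by name. This gave 129 probe sets for 68 genes, of 18193 genes with a single symbol on the array. Whole aortas of 32-week-old C57BL/6J wild-type mice (3 arrays) were compared with aortas of apoE-/- mice of the same background and age (3 arrays). The labels do not say whether an array held 1 animal or a pool, so p-values rest on the variation among these arrays alone, and that variation may be technical. No diet or treatment is named in the labels.

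Antioxidant defence rests on a few linked cycles. Superoxide dismutases turn superoxide into hydrogen peroxide, which catalase, the glutathione peroxidases and the peroxiredoxins remove. Glutathione reductase and thioredoxin reductase then restore the electron donors with NADPH, and glutathione transferases couple glutathione to lipid oxidation products and foreign compounds. Many of these genes are targets of the transcription factor NRF2 (Nfe2l2), which KEAP1 holds in check until oxidants or electrophiles release it, and which acts through antioxidant response elements in DNA. The rule also took in proteins that share a thioredoxin fold without a known part in peroxide removal, such as the spliceosome protein Txnl4a and its relative Txnl4b.

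The NRF2 site is shown here because the members with the lowest p-values include Nfe2l2 itself and known NRF2 targets, none of them called. Members at an unadjusted p under 0.05 lay on both sides, 9 higher and 4 lower, the lower ones including Gstm1 (log2 change -0.31). Nqo1, a standard NRF2 reporter, had a change of -0.16. Whether NRF2 targets changed as a set was not tested. The searched core was TGACNNNGC, on both strands, from 250 bases before to 50 after the annotated start of each gene in RefSeq (GRCm38.p6). The core includes the AP-1 motif TGACTCA when the letters between are TCA, which was the case in 0 of the member matches. Of the 68 member genes 61 had such a window, and 12 of them (19.7%) held the core, against 14.0% of 27025 genes. Per window the shares were 14.5% of 83 and 12.4% of 32851. Of the 9 members at an unadjusted p under 0.05 on the higher side, 8 had a window and 3 held the core: Nfe2l2, Txnrd1 and Srxn1. Of the 4 on the lower side, 0 did. Gclm is printed beside them because it held the core and had a log2 change of -0.04. Gstm7, with a change of -0.30, held it too. So did Gsta3 (0.15), Mgst1 (0.10), Sod1 (0.04), Gstm5 (0.01), Txndc11 (0.01), Txndc5 (-0.06) and Txndc2, which was not tested. A match is a description of letters and not a shown binding site. In the lines below, written along the gene's own strand, capitals mark the core or its reverse complement. The first 3 are the 250 bases before the start, and the Srxn1 line is 30 bases around a match whose first base lies 29 bases after the start.

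Nfe2l2, chr2:75704664-75704913, minus strand: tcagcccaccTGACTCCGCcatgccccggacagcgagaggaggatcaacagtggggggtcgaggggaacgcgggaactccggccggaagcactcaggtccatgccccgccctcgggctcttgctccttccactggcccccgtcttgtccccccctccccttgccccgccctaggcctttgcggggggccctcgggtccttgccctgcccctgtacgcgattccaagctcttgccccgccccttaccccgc
Txnrd1, chr10:82858956-82859205, plus strand: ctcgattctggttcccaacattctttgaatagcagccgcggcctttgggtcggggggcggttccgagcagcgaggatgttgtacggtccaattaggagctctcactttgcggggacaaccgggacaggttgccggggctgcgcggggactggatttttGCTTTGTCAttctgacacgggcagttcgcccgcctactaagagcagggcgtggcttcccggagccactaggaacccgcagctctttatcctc
Gclm, chr3:122245307-122245556, plus strand: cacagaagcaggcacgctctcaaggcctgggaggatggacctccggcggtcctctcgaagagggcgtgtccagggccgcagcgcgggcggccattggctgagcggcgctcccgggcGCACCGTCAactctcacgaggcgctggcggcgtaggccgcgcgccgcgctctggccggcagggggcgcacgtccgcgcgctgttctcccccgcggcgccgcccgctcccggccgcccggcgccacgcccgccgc
Srxn1, chr2:152105542-152105571, plus strand: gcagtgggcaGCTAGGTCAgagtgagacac

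Array medians lay between 178 and 195.5 units. Apoe, the disrupted gene, read 4309 to 5686 units in wild-type aorta and 56.3 to 462 units in apoE-/- aorta, so all 6 labels matched its signal (log2 change -4.65 ± 0.56, SE, limma adjusted p = 0.0039). Summed smooth muscle markers (10 genes) read 65868 to 85630 units over the 6 arrays. All 10 had changes below 0, and 0 were called. For 4 of them all apoE-/- arrays lay below wild type, as for 13.7% of all genes. Summed macrophage markers (20 genes, of which 19 were called higher) were 21500 to 23075 units on the wild-type arrays. They were 86888, 58372 and 90882 units on apoE-/- replicates 1, 2 and 3. Of all genes tested, 3.19% were called higher. The macrophage markers Itgam and Cx3cr1 had wild-type means of 122.8 and 123.3 units, under the filter on dim signals. Both entered the test only through the apoE-/- arrays. Skeletal muscle markers (10 genes) summed to 27707 units on wild type replicate 3 and to between 1424 and 2937 on the others. Adipocyte markers (9 of 11 listed genes on the array) summed to 64203 units on wild type replicate 2 and to between 32055 and 46367 on the others. In bulk tissue, fewer cells of a type and less RNA per cell cannot be told apart.

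The antioxidant genes as a group read close to alike in both genotypes, and none passed the test. Of the 68 genes, 61 had a probe set above the filter on dim signals. Of these, 0 were called higher and 0 lower at a limma adjusted p under 0.05. Over the whole array 3.65% of 13052 genes were called, 3.19% higher and 0.467% lower. The smallest adjusted p among members was 0.132. At an unadjusted p under 0.05, 9 members lay on the higher side and 4 on the lower (13 of 61, 21.3%). The whole array had 9.62% on the higher side and 8.74% on the lower, 18.4% together. The 3 apoE-/- arrays lay wholly on one side of the 3 wild-type arrays for 14 of 61 members (23.0%), 8 higher and 6 lower, against 24.7% of all genes (11.0% higher and 13.7% lower). The median log2 change of the members was -0.00, with 30 positive and 31 negative, beside -0.05 over all genes.

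Sizes were small as well, but at the median they were close to those of all genes (absolute log2 change 0.15 for members and 0.16 for all). Member log2 changes ran from -0.44 (Txnl4b) to 0.54 (Txndc8), so no member reached 2-fold, as 2.79% of all genes did. The 95% interval of the change lay within 2-fold in both directions for 58 of 61 members (95.1%, and 89.0% of all genes) and within 1.5-fold for 45. The 3 exceptions were Gsta3, Mgst2 and Txndc8, whose interval ended at 1.02.

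**Figure D1:**
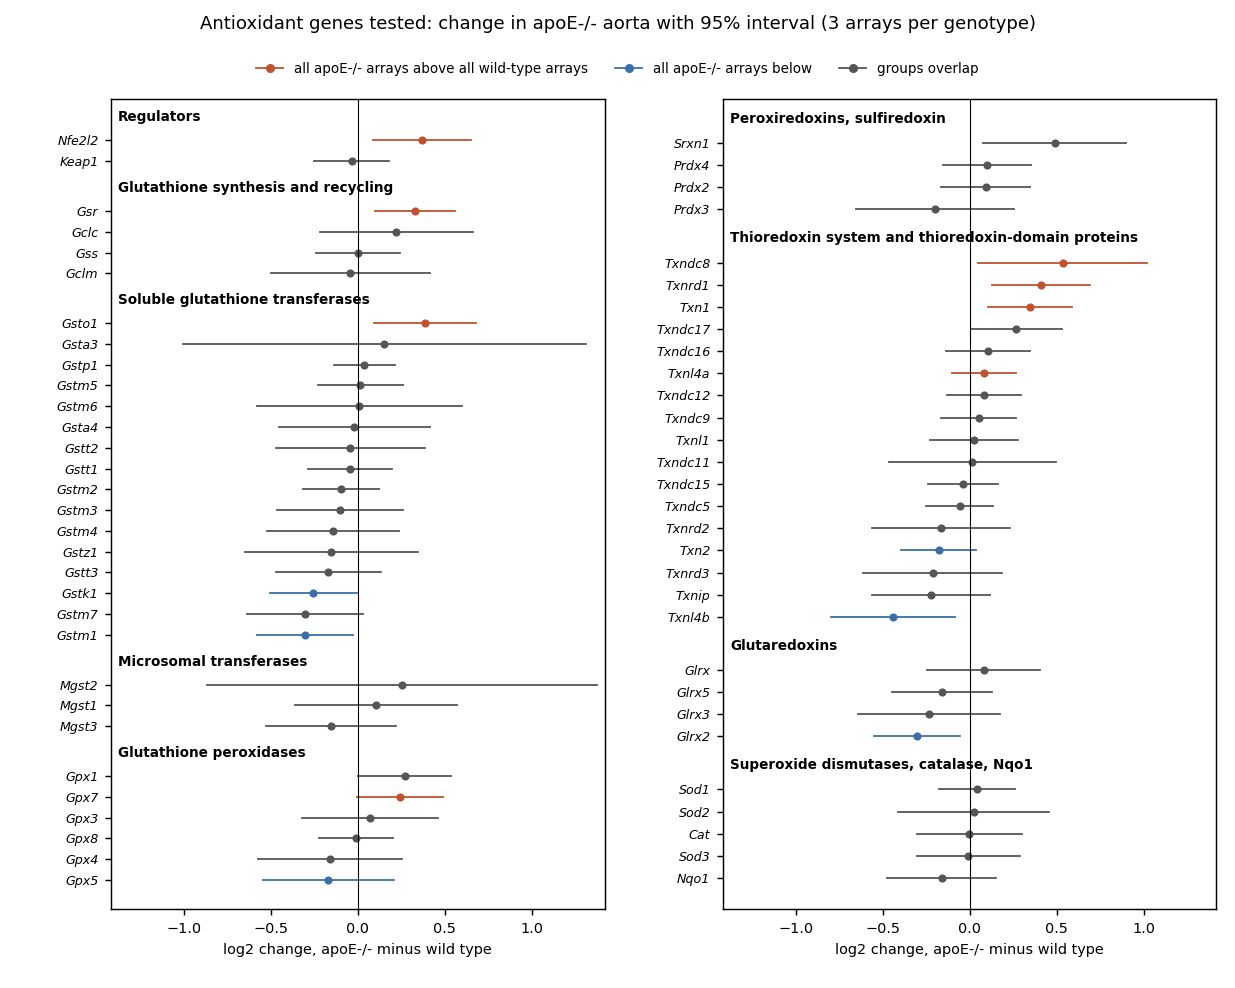
Log2 change (apoE-/- minus wild type) of the 61 antioxidant genes tested, grouped by role, with points for the limma estimate and bars for its 95% interval (3 arrays per genotype). Most intervals cross 0, no estimate passes 0.54 in size, and the widest bars belong to Gsta3 and Mgst2.

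Neither regulator was called. Nfe2l2, which encodes NRF2, read 2591, 2716 and 2385 units on wild type replicates 1 to 3 and 3664, 2756 and 3608 units on apoE-/- replicates 1 to 3. The groups did not overlap, but apoE-/- replicate 2 lay only just above the highest wild-type array. Its log2 change was 0.37 ± 0.12 (SE, limma adjusted p = 0.162). A second, dim Nfe2l2 probe set, under the filter and not tested, read 13.7 to 56.5 units in wild type and 103.7 to 110.7 in apoE-/-. Keap1, the partner that targets NRF2 for degradation, read 965 to 1086 units in wild type and 994 to 1029 in apoE-/- (log2 change -0.03 ± 0.09). Its weaker probe set gave 0.54 ± 0.21 with all apoE-/- arrays above wild type, so the Keap1 probe sets disagreed. The difference between Nfe2l2 and Keap1 was not tested.

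No gene of the thioredoxin system was called, and probe sets of one gene differed in sign. Txn1, cytosolic thioredoxin, read 6294, 6378 and 5986 units in wild type and 8407, 6803 and 8622 units in apoE-/-. The groups did not overlap, and the mean was 1.28 times as high (log2 change 0.35 ± 0.11, SE, limma adjusted p = 0.133). Txnrd1, the cytosolic reductase that recharges it, read 1642, 1728 and 1533 units in wild type and 2042, 1931 and 2599 units in apoE-/- (0.41 ± 0.12, adjusted p = 0.132). Again all 3 apoE-/- arrays were above all wild-type arrays. The weaker probe sets of Txn1 and Txnrd1 gave -0.07 and -0.14. Of their mitochondrial counterparts, Txn2 had a log2 change of -0.18 ± 0.10, with all 3 apoE-/- arrays below wild type. Txnrd2 had one of -0.16 ± 0.17, with overlap, and its other 2 probe sets gave 0.01 and 0.06. The cytosolic and mitochondrial genes were not tested against each other. Txnrd3, a testis-enriched reductase, read 550 to 817 units in wild type and 555 to 713 in apoE-/-.

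Txnip, which binds and inhibits thioredoxin, read 7613, 9317 and 9309 units in wild type and 7351, 9113 and 6175 units in apoE-/-. Its groups overlapped (log2 change -0.22 ± 0.15), and the weaker Txnip probe set gave -0.42 ± 0.21. Txndc17, a small cytosolic thioredoxin-like protein, had 3 probe sets with changes of 0.22 to 0.34, and the representing one had an unadjusted p = 0.0457 (adjusted p = 0.261). The largest positive estimate was that of Txndc8, a thioredoxin of male germ cells, from 130 to 207 units in wild type and 228 to 292 in apoE-/-, levels close to the filter. The largest negative one was that of Txnl4b, at 476, 518 and 662 units in wild type and 406, 441 and 352 units in apoE-/- (-0.44 ± 0.16, adjusted p = 0.181). Of the other thioredoxin-domain genes, mostly oxidoreductases of the endoplasmic reticulum or of unsettled function, Txndc5, Txndc9, Txndc11, Txndc12, Txndc15, Txndc16, Txnl1 and Txnl4a had changes between -0.06 and 0.11. The Txnl4a probe sets disagreed: the brighter gave 0.08 with all apoE-/- arrays above wild type, the weaker -0.31 with all below.

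Srxn1 encodes sulfiredoxin, which repairs over-oxidised peroxiredoxins and is a known NRF2 target. It read 978, 943 and 863 units in wild type and 1360, 975 and 1681 units in apoE-/-. Replicates 1 and 3 of apoE-/- were well above wild type while replicate 2 lay within its range, so the groups overlapped (log2 change 0.49 ± 0.18, SE, limma adjusted p = 0.201). All 4 Srxn1 probe sets had positive changes, from 0.13 to 0.49, and the median over them gave 0.22. Of the peroxiredoxins only Prdx2, Prdx3 and Prdx4 were members under the rule, so Prdx1, Prdx5 and Prdx6 are not covered here. Prdx2 and Prdx4, the latter resident in the secretory pathway, had changes of 0.09 ± 0.11 and 0.10 ± 0.11. The other 2 Prdx4 probe sets gave -0.00 and -0.30, the last with all apoE-/- arrays below wild type. Mitochondrial Prdx3 read 2031, 3797 and 2419 units in wild type against 2288, 2271 and 2375 in apoE-/- (-0.20 ± 0.20), and its spread came from wild type replicate 2.

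No gene that makes or recycles glutathione was called. Gsr, glutathione reductase, read 955, 894 and 1005 units in wild type and 1171, 1132 and 1300 units in apoE-/-. The groups did not overlap, and the log2 change was 0.33 ± 0.10 (SE, limma adjusted p = 0.133). Its second probe set, of similar brightness, gave -0.05 ± 0.16 with overlapping groups, so the reading rests on 1 of 2 probe sets. The rate-limiting ligase subunits Gclc (catalytic) and Gclm (modifier) had changes of 0.22 ± 0.19 and -0.04 ± 0.20, and the Gclc interval of -0.22 to 0.66 holds the Gsr value. Gss, glutathione synthase, read 514 to 531 units in wild type and 504 to 538 in apoE-/- (0.00 ± 0.10).

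**Figure D2:**
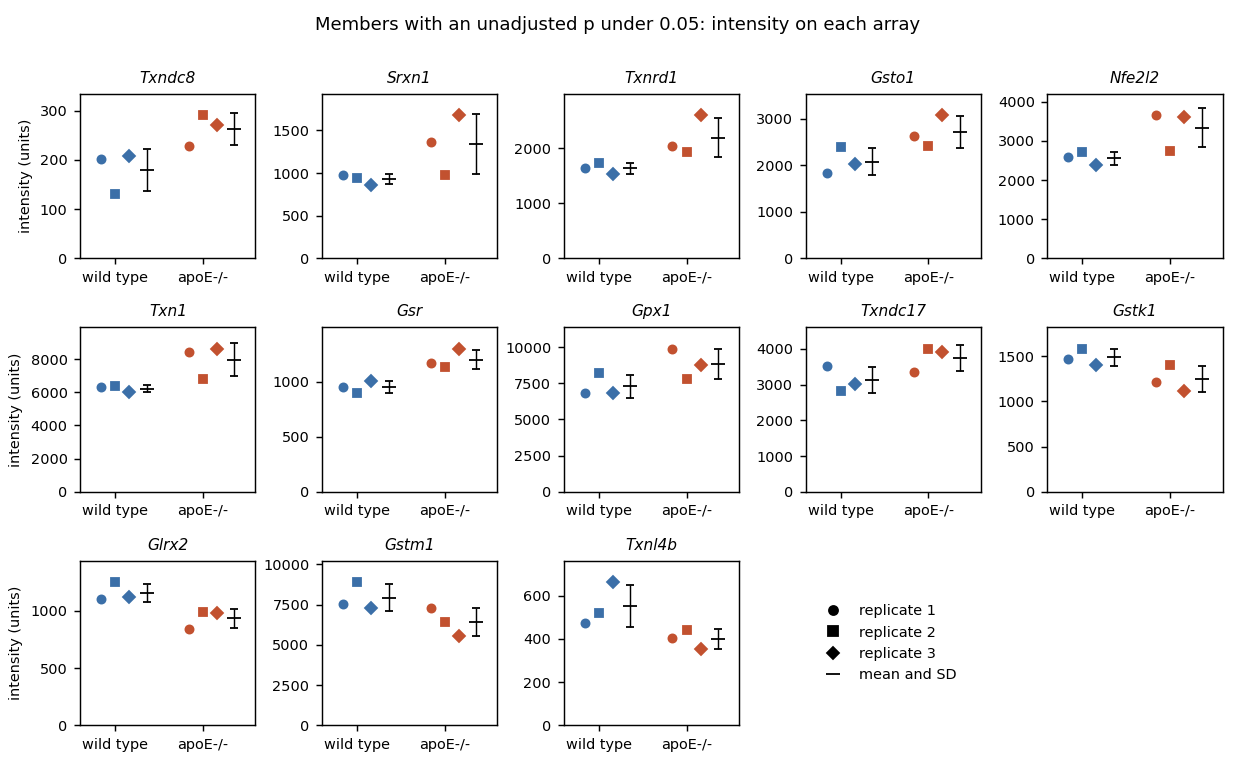
Intensity on each array, in the deposited linear units from 0, for the 13 members with an unadjusted p under 0.05, with symbols for replicates 1 to 3 and the mean and SD (n = 3) beside them. In 7 of the 9 members with higher means, apoE-/- replicate 2 (square) is the lowest of the apoE-/- arrays.

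The glutathione peroxidases, which reduce peroxides with glutathione, also stayed within narrow limits. Gpx1, the main cytosolic form, read 6836, 8231 and 6854 units in wild type and 9894, 7802 and 8743 units in apoE-/-. The groups overlapped through wild type replicate 2 (log2 change 0.27 ± 0.12, SE, limma adjusted p = 0.268). Gpx7, a form of the endoplasmic reticulum, was separated between 726 to 800 and 812 to 966 units (0.24 ± 0.11, adjusted p = 0.279). Gpx8, its close relative, read 2820 to 3263 units in wild type and 2855 to 3232 in apoE-/-. Gpx4, which reduces lipid peroxides in membranes, had changes of -0.16 ± 0.18 and -0.19 in its 2 probe sets, and secreted Gpx3 one of 0.07 ± 0.17. Gpx5, known from the epididymis, read 194 to 207 units in wild type and 164 to 190 in apoE-/-.

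The soluble (not microsomal) glutathione transferases held 16 tested genes, with 5 changes above 0 and 11 below and a median of -0.07. Gsto1, the omega form, read 1824, 2388 and 2024 units in wild type and 2642, 2423 and 3082 units in apoE-/- (log2 change 0.38 ± 0.13, SE, limma adjusted p = 0.163). The groups were separated by a small gap, and its second probe set gave only 0.08. At the other end, Gstm1, a major mu class form, read 7568, 8887 and 7319 units in wild type and 7261, 6453 and 5560 units in apoE-/- (-0.31 ± 0.12, adjusted p = 0.229). All 4 Gstm1 probe sets lay between -0.36 and -0.30. Gstm7 had a change of -0.30 ± 0.15 and a second probe set at -0.23, and Gstm2, Gstm3, Gstm4, Gstm5 and Gstm6 lay between -0.14 and 0.01. Mu class genes are near copies of each other, so probe sets can share signal, and which copy carries the Gstm1 difference is uncertain.

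Gstk1, the kappa form of mitochondria and peroxisomes, read 1468, 1581 and 1403 units in wild type and 1217, 1396 and 1116 units in apoE-/- (-0.26 ± 0.11, adjusted p = 0.260). Its groups were separated by a narrow gap. Gstp1, the pi form, was the steadiest member of this family, at 6960 to 7152 units in wild type and 7094 to 7629 in apoE-/- (0.04 ± 0.08), so its 95% interval of -0.14 to 0.21 excludes a change of 1.5-fold. The theta forms Gstt1, Gstt2 and Gstt3 had changes of -0.04, -0.04 and -0.17. Of the microsomal forms, Mgst1 read 6100 to 10284 units in wild type and 6746 to 9243 in apoE-/- (0.10 ± 0.20), and Mgst3 had a change of -0.16 ± 0.16.

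Superoxide dismutases and catalase had changes near 0 on their brightest probe sets. Sod3, the extracellular form made in quantity by vascular smooth muscle, read 7252, 7899 and 7241 units in wild type and 9062, 7076 and 6359 units in apoE-/- (log2 change -0.01 ± 0.13, SE). Cytosolic Sod1 had a change of 0.04 ± 0.10, mitochondrial Sod2 one of 0.02 ± 0.19 and Cat one of -0.00 ± 0.13. These 95% intervals all lay within 1.5-fold. Other probe sets read lower: a Sod1 probe set of like brightness gave -0.18 ± 0.11 and a weak one -0.38 ± 0.17, both with all apoE-/- arrays below wild type, and the remaining one gave -0.01. Further Sod2 probe sets lay between -0.24 and 0.01, and those of Cat and Sod3 gave -0.11 and -0.05. Nqo1, quinone reductase and a standard NRF2 reporter, read 612, 536 and 638 units in wild type and 607, 532 and 458 units in apoE-/- (-0.16 ± 0.14, limma adjusted p = 0.578). Its estimate lay opposite in sign to those of the brightest Srxn1 and Txnrd1 probe sets, but its 95% interval of -0.47 to 0.15 held 0. The weaker Txnrd1 probe set gave -0.14. The difference of Nqo1 from Srxn1 and Txnrd1 was not tested. The glutaredoxins, which reduce mixed disulfides with glutathione, ran from -0.30 (Glrx2) to 0.08 (Glrx). Glrx2, a mitochondrial form, read 1102, 1250 and 1120 units in wild type and 838, 987 and 979 units in apoE-/- (-0.30 ± 0.11, adjusted p = 0.182), without overlap, whereas its other 2 probe sets gave -0.14 and -0.07. Glrx3 and Glrx5, which serve iron-sulfur cluster assembly, had changes of -0.24 ± 0.18 and -0.16 ± 0.13.

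Probe sets of one gene often disagreed at this size of change. Fitted one by one, 107 member probe sets passed the filter and 0 were called (smallest limma adjusted p = 0.111, for the weaker Glrx probe set at 0.39 ± 0.11), where 3.12% of 22730 probe sets were called, 2.78% higher. At an unadjusted p under 0.05 there were 19 of 107 member probe sets, against 16.9% of all probe sets. Groups did not overlap for 24 of 107, against 23.4% of all. Of 30 genes with several probe sets above the filter, 18 had all changes of one sign and 12 had both signs. In 0 of the 30 were the groups separate on every probe set. The genes with both signs included Txn1, Txnrd1, Gsr and Keap1. The weaker Txn1 probe set read 413 to 773 units in wild type and 275 to 851 in apoE-/- (-0.07 ± 0.40), and the weaker Txnrd1 probe set gave -0.14 ± 0.22, both with wider errors than the representing ones.

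**Figure D3:**
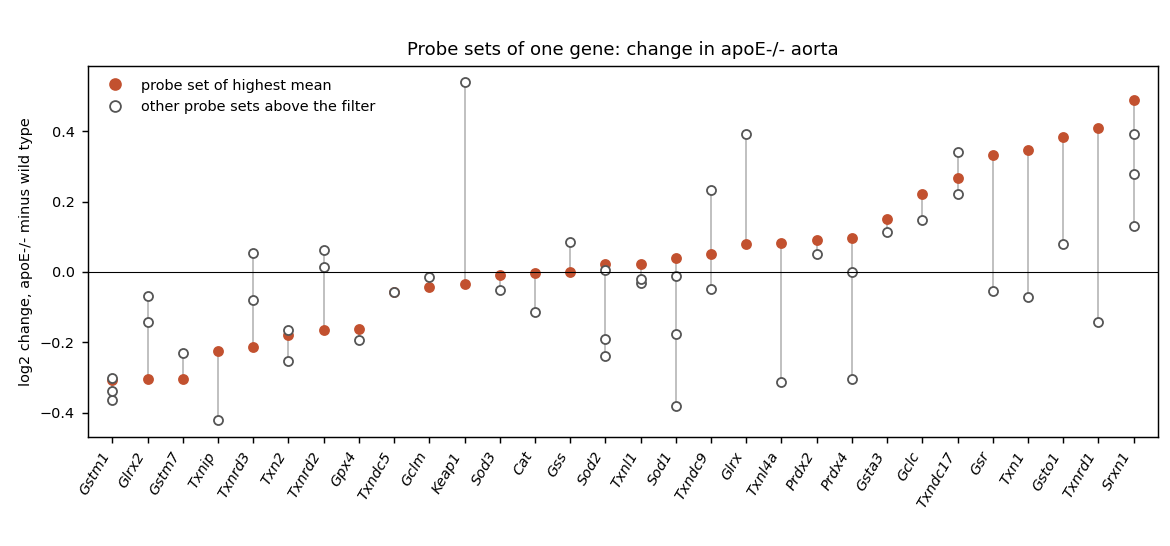
Log2 change (apoE-/- minus wild type) of every probe set above the filter for the 30 members with several, with filled points for the probe set of highest mean and open points for the others. Gstm1, Txndc17 and Srxn1 keep one sign on all probe sets, and Gsr, Txn1, Txnrd1 and Keap1 have probe sets on both sides of 0.

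The apoE-/- arrays were not alike for the leading members, and single arrays set how far they passed. Without apoE-/- replicate 2, 3 of 61 members were called higher: Srxn1 (0.70, limma adjusted p = 0.0230), Nfe2l2 (0.50, adjusted p = 0.0298) and Txn1 (0.45, adjusted p = 0.0342). That fit called 554 of all 13052 genes higher, a share close to that of the members. Leaving out each of the other 5 arrays in turn gave 0 called members in either direction. Of the 9 members at an unadjusted p under 0.05 on the higher side, 7 had apoE-/- replicate 2 as the lowest apoE-/- array (Gpx1, Gsr, Gsto1, Nfe2l2, Srxn1, Txn1 and Txnrd1). Of the 1255 genes over the whole array at the same threshold and side, 907 (72.3%) had it lowest, close to the 77.8% of members. It was lowest for 32.6% of all genes tested and for 364 of the 416 called higher. Replicate 2 also had the lowest summed macrophage markers of the apoE-/- arrays, 58372 units against 86888 and 90882. The part of macrophage RNA in the readings of Txn1, Srxn1 and Nfe2l2 was not tested.

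A second pattern ran within the wild-type group. Wild type replicate 2 was the highest of all 6 arrays for 25 of 61 members (41.0%), against 18.9% of all genes. It exceeded the mean of the other wild-type arrays by more than 0.5 in log2 for 9 members (14.8%, and 5.13% of all genes): Gsta3, Mgst2, Gstz1, Prdx3, Mgst1, Gpx4, Gpx3, Sod2 and Gsta4. Gsta3, an alpha class transferase, read 278, 835 and 143 units in wild type and 434, 306 and 361 in apoE-/-. Mgst2 read 113, 347 and 62.5 units in wild type and 176, 134 and 200 in apoE-/-. Mitochondrial Sod2 read 3960, 6217 and 4216 units in wild type and 5865, 4092 and 4527 in apoE-/-.

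Adipocyte markers were also high on that array. Their sum on wild type replicate 2 was 1.64 times the mean of wild type replicates 1 and 3, the array for which the 9 members were chosen. Among apoE-/- arrays the sum was 46367, 32055 and 33887 units on replicates 1 to 3. Of the 9 members, 7 were highest on replicate 1 and 9 lowest on replicate 2, where 32.8% and 32.6% of all genes were. Summed adventitial fibroblast markers (8 genes) had the same order, at 71177, 59112 and 60634 units on apoE-/- replicates 1 to 3. On wild type replicate 2 that fibroblast sum was 1.01 times the mean of wild type replicates 1 and 3. The part of adipose tissue in the readings of the 9 members was not tested. Without wild type replicate 2 the Mgst2 change was 0.87 in place of 0.25, and that of Mgst1 0.35 in place of 0.10, with neither called. Wild type replicate 3, with its skeletal muscle signal, was the highest array for 7 members (11.5%, and 19.7% of all genes) and the lowest for 16 (26.2%, and 14.7% of all genes).

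**Figure D4:**
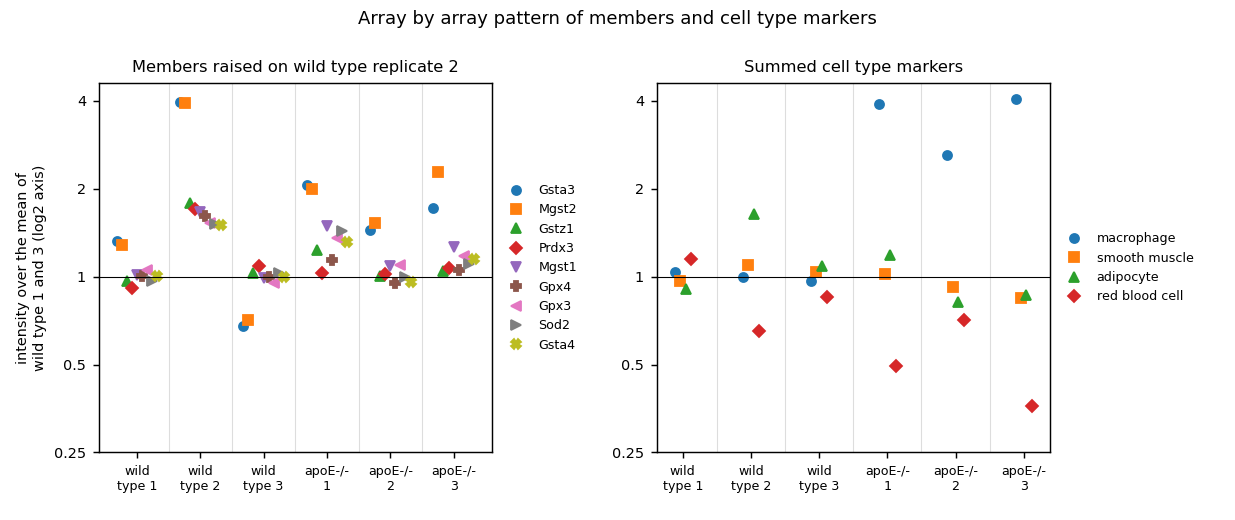
Intensity on each of the 6 arrays relative to the mean of wild type replicates 1 and 3 (log2 axis), for the 9 members raised on wild type replicate 2 (left) and for summed adipocyte, macrophage, smooth muscle and red blood cell markers (right). The members, chosen for it, and the adipocyte sum are highest on wild type replicate 2, and the macrophage sum is high on all apoE-/- arrays and lowest among them on replicate 2.

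Related genes outside the membership gave a mixed picture. Of the 5 tested subunits of the phagocyte NADPH oxidase, the enzyme that makes superoxide, 5 were called higher (3.19% of all genes were), with a median log2 change of 1.37. Cybb, its catalytic core, read 421, 374 and 354 units in wild type and 1613, 1234 and 2001 units in apoE-/-, a change of 2.01 ± 0.17 (SE, limma adjusted p = 0.00101). Rac2, Ncf4, Ncf1 and Cyba rose by 1.52, 1.37, 1.27 and 1.20. Macrophage markers moved with these subunits, which are known from phagocytes, and 4 of the 5 lost the call without apoE-/- replicate 1 (Rac2, Ncf4, Ncf1 and Cyba, adjusted p = 0.0529 to 0.140). Ncf4 and Ncf1 were called on leaving out apoE-/- replicate 2 and in none of the fits that left out one of the other arrays. In the fit of all 6 arrays the 5 oxidase subunits were thus called while the 61 antioxidant members were not. The difference between the lists was not tested.

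Of 23 other NRF2 targets and genes of NADPH supply, 2 were called higher (3.19% of all genes were) and 0 lower, with a median of 0.05. Of the called pair, Hmox1, haem oxygenase, read 33.5, 99 and 38.1 units in wild type and 216, 366 and 558 units in apoE-/- (limma adjusted p = 0.0169). All its wild-type readings lay under the filter of 124.15 units, so it entered the test only through the apoE-/- arrays. The fitted change of 2.46 ± 0.41 is therefore no measured fold, and Blvrb is the one call with signal above the filter in both genotypes. The Hmox1 call was lost on leaving out replicate 1 or 3 of wild type or replicate 3 of apoE-/- (adjusted p = 0.0582 to 0.0725). Blvrb, biliverdin reductase B, read 603 to 660 units in wild type and 941 to 1345 in apoE-/- (0.75 ± 0.14, adjusted p = 0.0269). It lies within 10 Mb of Apoe, and lost the call without any single array but apoE-/- replicate 2. The NADPH-supplying and pentose phosphate enzymes Pgd, Taldo1, Tkt and Me1 were not called. Me1, malic enzyme, named after its values were seen, read 8420 units on wild type replicate 2 and 2003 to 3954 on the others.

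Of 21 further genes of the glutathione cycle, 1 was called higher (3.19% of all genes were) and 0 lower, with a median of -0.12. It was Anpep, a surface aminopeptidase of myeloid and other cells, at 285 to 298 units in wild type and 798, 429 and 931 units in apoE-/- (1.18 ± 0.25, adjusted p = 0.0410). That call was lost when any single array but apoE-/- replicate 2 was left out. Slc3a2, the chain shared with the cystine importer, had a change of 0.48 ± 0.15 (adjusted p = 0.139), named after its value was seen. Of 20 metallothioneins, methionine sulfoxide reductases and other stress enzymes, 0 were called at a limma adjusted p under 0.05. At an unadjusted p under 0.05 there were 4 (20%, close to the 18.4% of all genes). The nearest was metallothionein Mt2, at 2345, 4431 and 2190 units in wild type and 7667, 5245 and 5461 units in apoE-/- (1.09 ± 0.26, adjusted p = 0.0639). It was called without wild type replicate 2 (1.41, adjusted p = 0.00678), the array of high adipocyte markers.

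**Figure D5:**
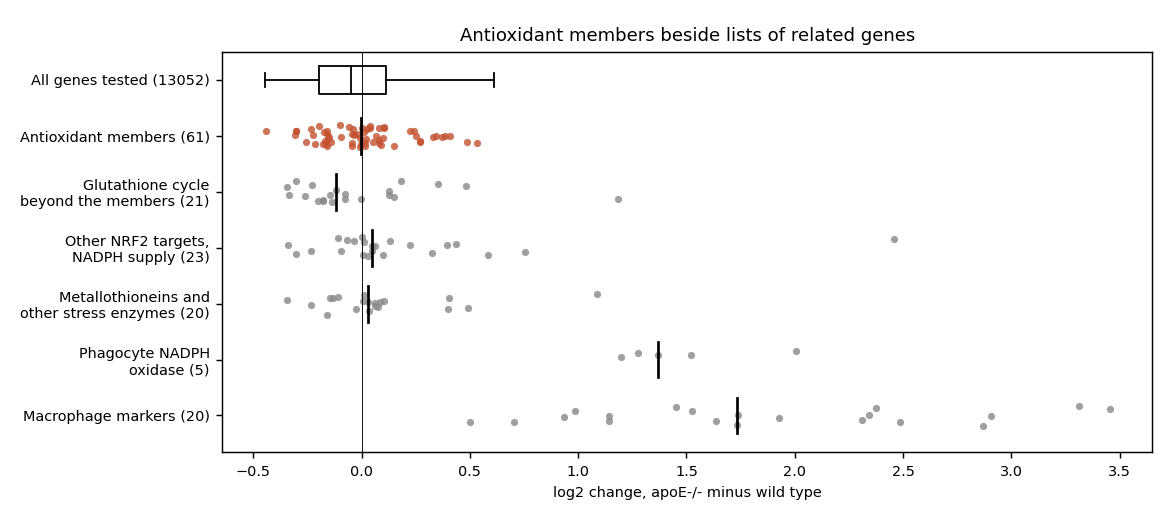
Log2 changes (apoE-/- minus wild type) of the 61 antioxidant members beside lists of related genes, with a point per gene, a bar at each median and, for all 13052 genes, a box of quartiles with whiskers from the 5th to the 95th percentile. The members lie within the spread of all genes, and the 5 oxidase subunits and 20 macrophage markers lie to the right of 0.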

How the data were processed

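Each of the 6 samples was run on a single-colour Affymetrix mouse oligonucleotide array. The authors deposited linear intensities, one for each probe set and array, and every array had a 2% trimmed mean of 500.002 units. The software that made them is not given in the sources used here, and the table holds no detection calls. Intensities of different probe sets are not comparable as levels.

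Of 45101 probe sets, 64 controls were left out. In the platform annotation, counted before controls were left out, 34958 probe sets had 1 gene symbol and 932 had several. Of the probe sets that were not controls, 9160 had no entry in it. Symbols were checked through GRCm38.p6 gene identifiers, which matched 34754 of the probe sets with 1 symbol and changed 0 names. Intensities were taken to log2(intensity + 16), which understates changes of dim genes. The lower 40% by mean over all arrays was left out (mean under 124.15 units), and the probe set of highest mean represented a gene.

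Genotypes were tested in R 4.3.3 by limma 3.58.1 (lmFit, eBayes with an intensity trend), over 13052 genes, with Benjamini-Hochberg adjustment and a call at an adjusted p under 0.05. Unadjusted p-values are from this fit too. An exact permutation test of 3 arrays against 3 cannot go below 0.1. The fit was tested on simulated data. Having 3 arrays per genotype limits the precision. Alternatives were log offsets of 1 and 64, a 60% filter or none, quantile normalization, centring on medians, the median of probe sets, every probe set as a row, no trend, array weights, a replicate block and each array left out.

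The members and lists were chosen with earlier results of these data known. Named genes were Apoe, in each role group the 3 tested members of largest change and the 2 brightest, and up to 5 called genes of each related list, or the one of smallest p. Other members are given by role.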

Additional observations from a re-analysis of the deposited data

How the results depend on the processing

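The count of members called higher was 0 under all alternatives except leaving out apoE-/- replicate 2. There it was 3 of 61 (Srxn1, Nfe2l2 and Txn1), beside 554 of all 13052 genes. Over the arrays left out one at a time the member count ranged from 0 to 3. The count called lower was 0 throughout. With the replicate number as a block, 0 members were called in either direction (smallest limma adjusted p = 0.248), and 296 genes were called higher and 18 lower over the array, against 416 and 61. Without the trend the array-wide counts were 273 and 24, and with single arrays left out they ran from 143 to 554 higher and from 11 to 141 lower. The labels give no more than a shared number: deviations of same-numbered arrays correlated at -0.12, -0.16 and -0.03 over genes. Smallest adjusted p-values of a member were 0.0741 with quantile normalization, 0.0816 with array weights and 0.183 without the intensity trend. Using the median over probe sets moved Gsr to 0.14, Txnrd1 to 0.13, Txn1 to 0.14 and Keap1 to 0.25. For the 32 named members the sign turned in 21 of 540 fits, over 9 genes, each with a main change of at most 0.25 in size. The call of Anpep was also lost without the filter, without the trend and with the replicate block (adjusted p = 0.0727, 0.0788 and 0.0513), that of Ncf4 without the filter and without the trend (0.0636 and 0.0652), that of Ncf1 without the trend (0.0519), and that of Blvrb without the trend and with the replicate block (0.0573 and 0.0745). Mt2 was called with quantile normalization and with array weights (0.0403 and 0.0229). The cause was not tested.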

Other observations

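Of the 68 member genes, 7 had no probe set above the filter and were not tested. They were Gpx2, of the gut, Gpx6, of the olfactory epithelium, Gsta2, Gsto2, Gstp3, Gstt4 and Txndc2, a thioredoxin of sperm. Their means over all arrays lay between 21.1 (Txndc2) and 103.5 units (Gpx6), and whether any was above background is not known from the table. Gpx6 read 98.9 to 193 units on the wild-type arrays and 56.1 to 82.3 on the apoE-/- arrays, without overlap. When these genes were let into the fit by dropping the filter, 0 of 68 members were called (smallest limma adjusted p = 0.148).

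Of 22 dim member probe sets, 3 had all apoE-/- arrays above wild type, those of Nfe2l2, Txndc15 and Txnrd1, and 2 had all below, those of Gpx6 and Txnrd2. The share over all dim probe sets was not computed, and of all probe sets above the filter 23.4% had groups without overlap. The dim counts are therefore no result about these genes. The dim Txnrd1 probe set read 28.8, 29.5 and 64.7 units in wild type and 75.6, 100.6 and 122 units in apoE-/-. The dim Txnrd2 probe set read 95.2, 135 and 126 units in wild type and 77.1, 42.5 and 45.1 units in apoE-/-. These are values without a test.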
